A study of Mus musculus with 71 samples.

Results

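The genes that write and remove methyl groups on cytosine were measured in 3 brain regions of mice after self-administration of cocaine or saline. The set holds the methyltransferases Dnmt1, Dnmt3a and Dnmt3b, the dioxygenases Tet1, Tet2 and Tet3, and the DNA-damage-inducible genes Gadd45a, Gadd45b and Gadd45g. These 9 genes were taken by symbol from tables of 37681 genes, and all 9 were present in each of the 6 tables.

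RNA-seq was carried out on 71 libraries from micro-punches of the nucleus accumbens (NAc), a ventral striatal region of reward, the ventral tegmental area (VTA), the midbrain source of its dopamine input, and the prefrontal cortex (PFC). Wild-type C57BL/6 mice (C57BL/6J in the methods), 8 weeks old in the study's methods and 8 to 10 in its reporting summary, responded for intravenous cocaine at 0.7 mg/kg per infusion or for saline in 21 daily sessions of 2 h, and tissue was taken after 1 or 28 days of abstinence. The 12 groups (region, time point and drug) held 6 libraries each, or 5 for saline VTA at 28 days. The saline mice shared the strain, genotype, operant sessions and abstinence with the cocaine mice, and the methods describe training with food pellets before the sessions. The methods name male and female mice, and the labels do not give the sex of a library or whether a library came from 1 mouse, so p-values measure the spread between libraries, which may in part be technical.

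Libraries held between 20971967 and 49700932 reads on genes. Summed over 9 markers of striatal medium spiny neurons, NAc libraries reached 4260 to 9147 CPM (read counts scaled to a fixed library total), whereas VTA libraries reached 265 to 482. Summed over 7 markers of dopamine neurons, VTA libraries reached 1131 to 5616 CPM, and NAc libraries 32.9 to 70.4. A single saline PFC library at 28 days stood apart, with 3207 CPM of the striatal markers against 261 to 331 in the other 5 of its group. The drug comparison and the saline region contrasts of the PFC at 28 days were therefore also computed without it. Levels, shares, scatter, correlations and the PFC interaction include it, and it held the highest Dnmt3a and the lowest Gadd45a of its group. In tissue libraries fewer cells of a type and less RNA per cell cannot be told apart.

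Methylation of cytosine, mostly where a G follows (CpG), is a lasting mark on DNA that neurons use in development and in adult plasticity. Dnmt1 copies the mark onto new strands after replication and is also abundant in neurons that no longer divide, whereas Dnmt3a and Dnmt3b place it on unmethylated DNA. TET enzymes oxidize the methyl group as the opening step of its removal, and the small GADD45 proteins are stress-induced factors linked to repair-coupled demethylation. In neurons Gadd45b is known as an activity-induced gene, and the oxidized base made by TET enzymes is more abundant in brain than in most tissues.

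Most promoter windows of the 9 genes are themselves rich in the CpG dinucleotide that their products act on. RefSeq windows of the 250 bases before each annotated start (build GRCm38.p6) were found for all 9 genes, 13 windows in all, since Dnmt1 and Dnmt3a have more than 1 start. Of these 13, 12 held more CpG than the median window of 6 CpG, as did 46.3% of all 32851 windows. Tet2 held 51 CpG, more than 99.9% of windows, and Gadd45a held 11, the fewest among members with a single window. The windows of Dnmt1 held 2, 7 and 26 CpG. The windows of Tet2 and Gadd45a are shown because they are the ends of the range among members with a single window. Each CG is in capitals, written 5′ to 3′ on the gene's own strand, Tet2 at chr3:133544391-133544640 and Gadd45a at chr6:67037408-67037657, both on the minus strand.
Tet2: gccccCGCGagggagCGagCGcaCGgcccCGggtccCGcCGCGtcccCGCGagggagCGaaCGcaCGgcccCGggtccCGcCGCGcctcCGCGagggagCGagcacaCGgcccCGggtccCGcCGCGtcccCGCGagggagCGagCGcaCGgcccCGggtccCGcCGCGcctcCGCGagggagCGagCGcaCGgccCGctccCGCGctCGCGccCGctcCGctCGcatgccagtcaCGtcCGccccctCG
Gadd45a: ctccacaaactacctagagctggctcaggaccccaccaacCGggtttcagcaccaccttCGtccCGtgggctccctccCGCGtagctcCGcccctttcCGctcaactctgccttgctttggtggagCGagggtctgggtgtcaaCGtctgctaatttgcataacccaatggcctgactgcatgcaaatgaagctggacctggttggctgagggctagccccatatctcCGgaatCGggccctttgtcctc

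The windows of Gadd45b and Gadd45g each held a TATA box sequence and an E-box, and they are shown because they held both. This pair was picked from several short sequences searched in the same windows. The others were TGACGTCA (0 of 13 windows, 1.55% of all windows), CCAAT (6 of 13, 33.8%) and GGGCGG (10 of 13, 32.7%). TATAAA, searched on both strands, was found in 2 of the 13 windows and in 12.4% of all windows. CACGTG, which reads the same on both strands, was found in 3 of the 13 and in 6.02% of all windows, and the pair together in these 2 and in 170 windows in all (0.517%). In Gadd45b (chr10:80929841-80930090, plus strand) TATAAA began 46 bases and CACGTG 185 bases before the start. In Gadd45g (chr13:51846425-51846674, plus strand) they began 27 and 142 bases before it. Both are written 5′ to 3′ with the motifs in capitals, and a match is a description of the letters, not of a bound site.
Gadd45b: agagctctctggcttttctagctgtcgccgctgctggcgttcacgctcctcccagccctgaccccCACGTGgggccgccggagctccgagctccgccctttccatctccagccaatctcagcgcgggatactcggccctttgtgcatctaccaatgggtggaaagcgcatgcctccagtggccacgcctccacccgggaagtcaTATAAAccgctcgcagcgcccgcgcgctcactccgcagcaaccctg
Gadd45g: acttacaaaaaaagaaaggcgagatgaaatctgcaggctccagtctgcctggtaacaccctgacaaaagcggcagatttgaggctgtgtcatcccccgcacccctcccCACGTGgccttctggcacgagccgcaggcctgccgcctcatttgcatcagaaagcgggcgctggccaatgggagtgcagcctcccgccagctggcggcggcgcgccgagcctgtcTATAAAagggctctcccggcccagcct

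Levels are given in RPKM, reads scaled to the length of the gene and to the reads of the library, which allow genes of different length to be set side by side. Among the methyltransferases, Dnmt1 and Dnmt3a carried nearly all of the signal in every region. Dnmt1 (chr9:20711650-20757317, minus strand, mm9) had group means between 9.91 RPKM ± 0.609 (SD, n = 6; saline VTA at 1 day) and 13.0 ± 0.808 (n = 6; saline PFC at 28 days). Dnmt3a (chr12:3806007-3914443, plus strand) ranged from 10.1 ± 0.630 (n = 6; saline VTA at 1 day) to 16.3 ± 1.12 (n = 6; saline NAc at 28 days). Dnmt3b (chr2:153475186-153513466, plus strand), the methyltransferase known mainly from early development, stayed between 0.113 and 0.228 RPKM in all group means, which is a mean of 16.2 to 35.4 reads per library. Its share of the summed RPKM of the 3 methyltransferases was at most 1.04% in a group, and the rest divided between Dnmt1 and Dnmt3a by region. Dnmt1 made up 39.6% ± 2.15 (SD, n = 6) of the sum in saline NAc at 28 days and 55.1% ± 3.45 (n = 6) in saline PFC. The order of the 2 genes within a region depends on the length used. The RPKM length of Dnmt3a was 9708 bases where all its annotated exons cover 16642, and that of Dnmt1 was 5303 against 5264.

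Of the TET genes, Tet2 and Tet3 were the abundant members and Tet1 the lowest in every group. Group means of Tet2 (chr3:133126643-133207354, minus strand) lay between 3.20 RPKM ± 0.750 (SD, n = 5; saline VTA at 28 days) and 8.22 ± 0.964 (n = 6; cocaine NAc at 1 day). Tet3 (chr6:83312367-83391672, minus strand) lay between 3.38 ± 0.225 (n = 6; saline VTA at 1 day) and 7.60 ± 0.461 (n = 6; saline NAc at 28 days). Tet1 (chr10:62267318-62361866, minus strand) lay between 0.907 ± 0.170 (n = 6; saline PFC at 28 days) and 2.06 ± 0.155 (n = 6; cocaine VTA at 1 day). Tet1 took its largest share of the summed TET signal in the VTA, 20.0% ± 1.17 (n = 6) in saline libraries at 1 day, against 12.2% ± 1.15 (n = 6) in the NAc and 12.0% ± 1.18 (n = 6) in the PFC.

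The GADD45 genes had summed group means between 6.43 and 10.1 RPKM in the 1-day tables and between 18.3 and 24.5 RPKM in the 28-day tables. The 1-day and 28-day tables were made separately, so time point and table cannot be told apart and these levels were not compared by a test. Gadd45g (chr13:51942047-51943837, plus strand) had group means of 2.00 to 3.59 RPKM at 1 day and 7.72 to 13.8 RPKM at 28 days. Gadd45b (chr10:80392836-80394949, plus strand) had 2.35 to 3.20 and 4.26 to 7.32 RPKM, and Gadd45a (chr6:66985090-66987451, minus strand) 1.38 to 4.11 and 1.96 to 5.37 RPKM. The reads behind these means were few at 1 day, 42.3 per library for Gadd45a in cocaine NAc, compared with 1358 for Dnmt1 in the same libraries. The strand used in counting is not given in the sources used here, and Gadd45a shares 859 bases with the long RNA E230016M11Rik on the opposite strand, as Dnmt3b does 837 bases with 7530422B04Rik, so reads of these pairs could not be separated. Dnmt3a also spans Gm10485 and a miRNA on the opposite strand, and Tet1 spans a U6 snRNA gene on its own strand.

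**Figure D1:**
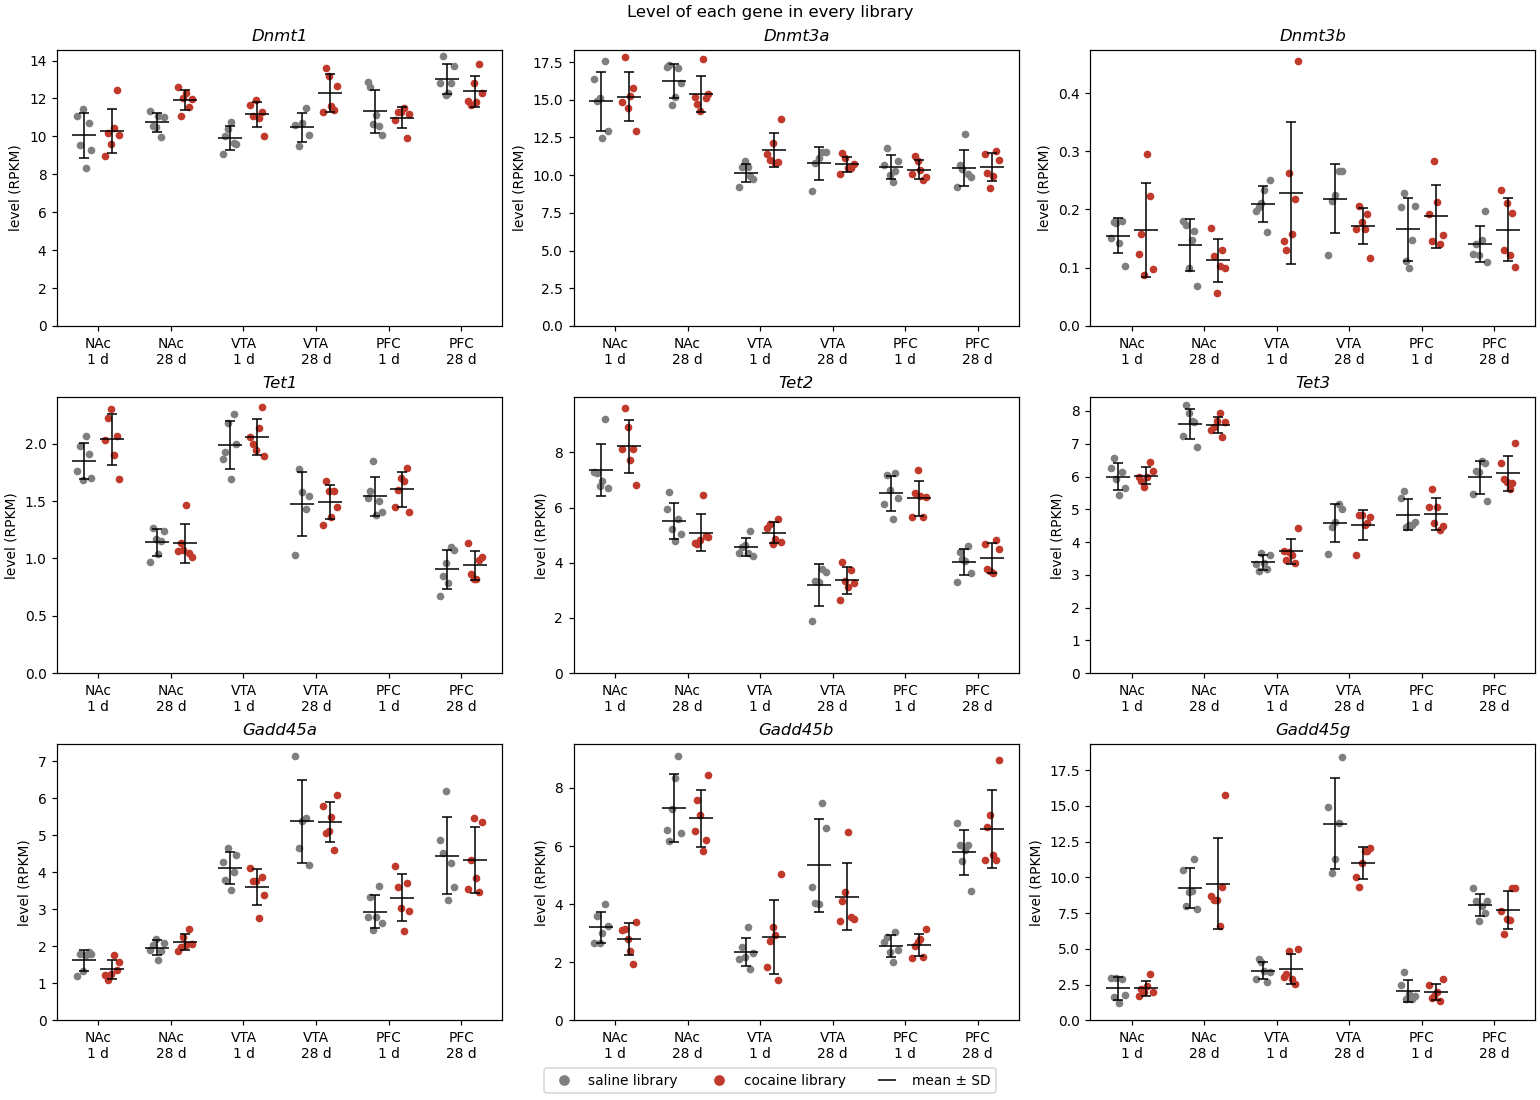
Level of each of the 9 genes in RPKM (vertical axes, each starting at 0) in every library, by region and days of abstinence (horizontal axes). Points are libraries (grey saline, red cocaine), and lines are the group mean ± SD. In every panel the saline and cocaine libraries of a region and time point overlap, and among the 28-day groups Dnmt3a, Tet2 and Tet3 sit highest in the NAc and Gadd45a lowest.

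**Figure D2:**
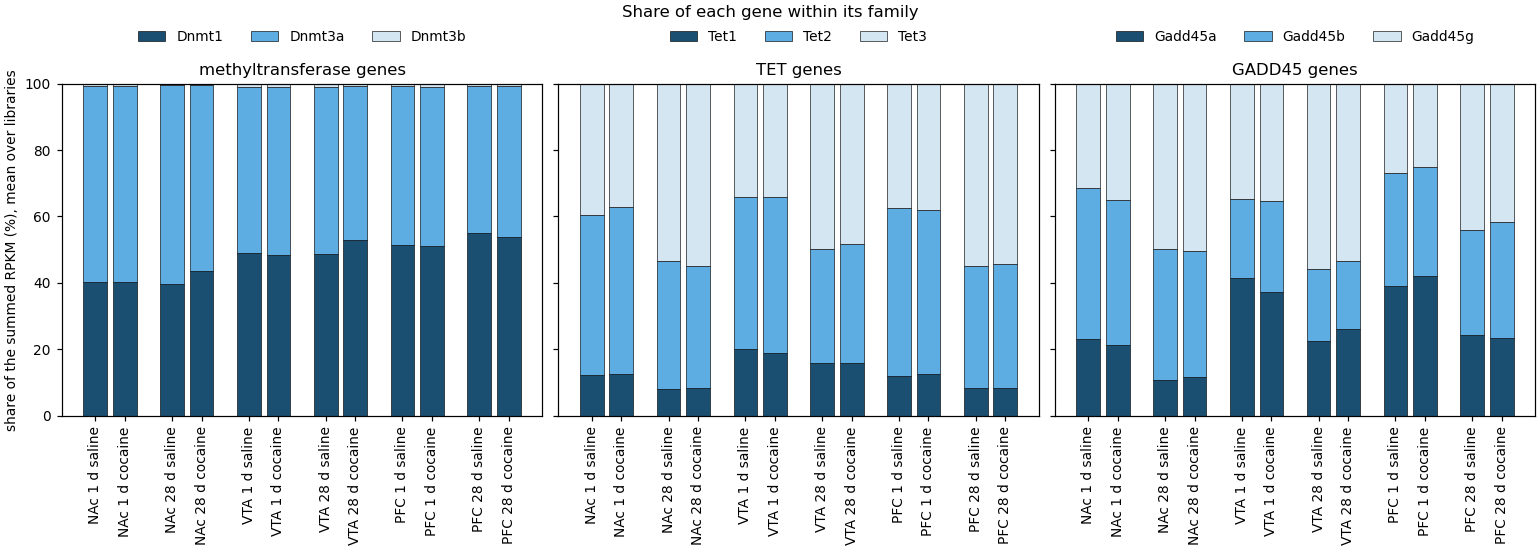
Share of each gene in the summed RPKM of its family in percent (vertical axis, mean over libraries), for the 12 groups of libraries (bars). The Dnmt1 share is lowest in the NAc groups, near 40%, and the Tet1 share is highest in the VTA groups at 1 day, near 20%.

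To ask whether cocaine self-administration changed these genes, cocaine was compared with saline within each region and time point. None of the 9 genes passed an adjusted p of 0.05 in any of the 6 comparisons, with Dnmt3b left untested by the filter on low values in the VTA and PFC at 1 day. Over the 52 gene-by-comparison tests, 6 had an unadjusted p under 0.05, 5 of them with the higher level after cocaine, and in 0 of 52 did the cocaine libraries lie wholly above or wholly below the saline libraries. Over all genes, 3.78% to 15.7% had an unadjusted p under 0.05, depending on the comparison. At 1 day 0.283% (NAc), 1.67% (VTA) and 0.159% (PFC) of all genes had groups that did not overlap, and at 28 days 0.227%, 1.32% and 0.214%. The largest difference was 0.37 on the log2 scale, and the 95% confidence interval lay within a 1.5-fold change either way in 45 of 52 tests and within a 2-fold change in all 52. The 7 wider intervals belonged to Dnmt3b (4), Gadd45b (2) and Gadd45g (1), the genes with the fewest reads or the widest spread.

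**Figure D3:**
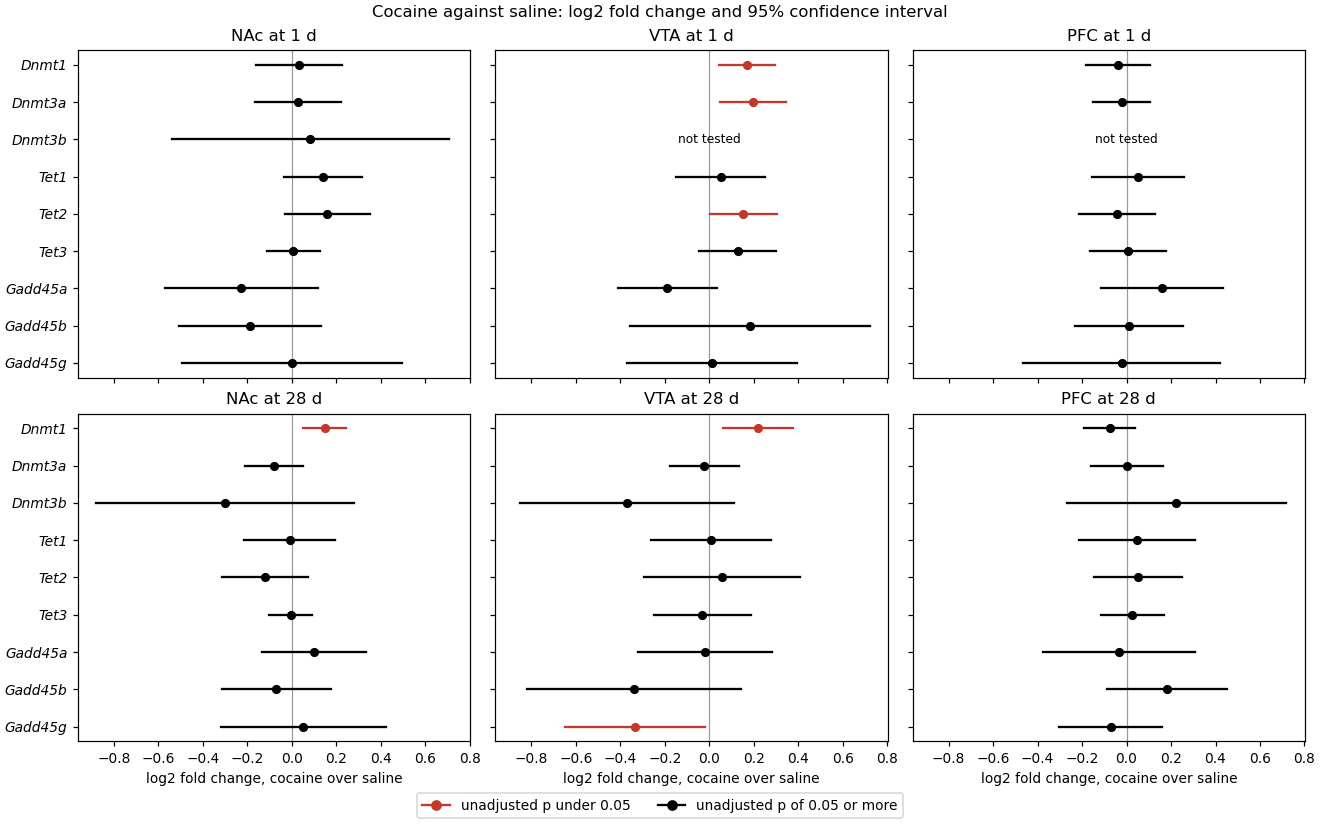
Log2 fold change of cocaine over saline with its 95% confidence interval (horizontal axes) for each gene (vertical axes) in the 6 comparisons (panels). Red marks the 6 results with an unadjusted p under 0.05, of which none passed adjustment over all genes, and Dnmt3b was not tested in the VTA and PFC at 1 day.

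In the NAc at 1 day, 0 of 9 genes were called by edgeR at an adjusted p under 0.05, as were 2 of 15878 genes in all (0.0126%). At an unadjusted p under 0.05 the counts were 0 of 9 and 4.01% of all genes, and DESeq2 called 0 of the 9 and 19 genes in all (0.0811%). The median log2 fold change of the 9 genes was 0.03, and that of all genes tested -0.00. Tet2 had the smallest p of the 9. Its saline libraries were at 6.69 (lowest), 7.10 (median) and 9.21 RPKM (highest), and its cocaine libraries at 6.82, 8.11 and 9.61 RPKM. The groups overlapped, and the log2 fold change was 0.16 ± 0.0893 (SE, n = 6 and 6; edgeR adjusted p = 0.9999). Gadd45a, a p53 target, had saline libraries at 1.20, 1.78 and 1.84 RPKM and cocaine libraries at 1.09, 1.30 and 1.77 RPKM, a log2 fold change of -0.23 ± 0.161 (edgeR adjusted p = 0.9999). Dnmt1 and Dnmt3a were at 0.03 ± 0.0894 and 0.03 ± 0.0903, with intervals from -0.16 to 0.22 for both.

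In the NAc at 28 days, 0 of 9 genes and 0 of 16295 genes in all (0%) were called by edgeR. At an unadjusted p under 0.05 the counts were 1 of 9 and 6.76% of all genes (3.34% higher after cocaine), and DESeq2 called 0 of the 9 and 11 genes in all (0.0471%). Dnmt1, the maintenance methyltransferase, was the 1 of 9. Its 6 saline libraries were at 9.98 (lowest), 10.8 (median) and 11.3 RPKM (highest), and its 6 cocaine libraries at 11.1, 12.0 and 12.6 RPKM. All 6 cocaine libraries were above the saline mean and 5 of 6 were above every saline library. The log2 fold change was 0.15 ± 0.0456 (SE), a 1.11-fold difference with an interval from 1.04 to 1.19, with an unadjusted p of 0.00558, an adjusted p of 0.592 (edgeR) and a two-sided exact permutation p of 0.00649, where 0.00216 was the smallest possible. Over 3 other settings the adjusted p of Dnmt1 ranged from 0.279 to 0.767, and it ranged from 0.371 to 0.999 when single libraries were left out. The de novo enzyme Dnmt3a lay the other way, at -0.08 ± 0.0608, with saline libraries at 14.7, 16.6 and 17.3 RPKM and cocaine libraries at 14.3, 15.1 and 17.7 RPKM (adjusted p = 0.847). A single cocaine library held the highest Dnmt3a, Tet1 and Tet2 of its group, and without it the difference was -0.13 for Dnmt3a and -0.20 for Tet2, whose value with all libraries was -0.12. Neither of these values without it was called. Markers of cell types were also read in these libraries, with 0 called. All 6 oligodendrocyte markers had a negative log2 fold change (median -0.12), 2 of them at an unadjusted p under 0.05 (3.42% of all genes were lower), and their summed level was 5022 to 6330 CPM after cocaine and 5859 to 6809 CPM after saline. All 6 endothelial markers were negative as well (median -0.15, 1 at an unadjusted p under 0.05), at 219 to 267 and 243 to 304 CPM, and so were all 7 cortical markers (median -0.54, 0 at an unadjusted p under 0.05), at 2185 to 3043 and 2116 to 3186 CPM. Of 6 markers of dividing cells and neural progenitors, Dcx and Sox11 among them, 4 were positive and 1 had an unadjusted p under 0.05. Their summed level was 36.3 to 62.5 CPM after cocaine and 25.2 to 49.9 CPM after saline. All 6 astrocyte markers were positive (median 0.08) and 8 of 9 medium spiny neuron markers negative (median -0.15), with 0 at an unadjusted p under 0.05 in either list. The part of all these cells in the value of Dnmt1 was not tested.

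In the VTA at 1 day, 0 of 8 tested genes were called by limma, as were 10 of 15042 genes in all (0.0665%). At an unadjusted p under 0.05 the counts were 3 of 8 and 15.7% of all genes, all 3 higher after cocaine, where 11.2% of all genes were higher. DESeq2 on reads recovered from the RPKM values called 0 of the 9 genes and 709 genes in all (2.98%), and limma with the replicate number as a block called 0 of 8 and 0.399% of all genes. At an adjusted p under 0.25 limma passed 2 of 8, Dnmt1 and Dnmt3a, and 8.7% of all genes. Dnmt1 had saline libraries at 9.06 (lowest), 9.85 (median) and 10.8 RPKM (highest) and cocaine libraries at 10.0, 11.2 and 11.9 RPKM. Dnmt3a had saline libraries at 9.21, 10.2 and 10.9 RPKM and cocaine libraries at 10.8, 11.2 and 13.7 RPKM. In both genes all 6 cocaine libraries exceeded the saline mean and the groups overlapped. The log2 fold change of Dnmt1 on the log2(RPKM + 0.1) scale was 0.17 ± 0.0582 (SE, limma adjusted p = 0.214, exact permutation p = 0.0108), and that of Dnmt3a was 0.20 ± 0.0683 (adjusted p = 0.218, exact permutation p = 0.00649).

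Tet2 in the same libraries was at 4.25, 4.47 and 5.15 RPKM after saline and 4.67, 5.06 and 5.59 RPKM after cocaine, with a log2 fold change of 0.15 ± 0.0705 (limma adjusted p = 0.315, exact permutation p = 0.0281). Tet3 was at 3.12, 3.34 and 3.68 RPKM after saline and 3.36, 3.65 and 4.43 RPKM after cocaine (0.13 ± 0.0800, adjusted p = 0.468). Of the 8 tested genes, 7 had a positive difference and Gadd45a a negative one, at -0.19 ± 0.103 (adjusted p = 0.403), and the median of the 8 was 0.14 against 0.03 for all genes tested. Markers of many cell types also differed between cocaine and saline in these libraries. The summed level of 7 markers of cortical excitatory neurons was 214 to 407 CPM after cocaine and 133 to 225 CPM after saline, with 4 of 4 tested markers higher at an unadjusted p under 0.05 (11.2% of all genes) and Camk2a called (log2 fold change 0.59, limma adjusted p = 0.0266). The summed level of 7 microglial markers was 216 to 314 CPM after cocaine and 331 to 472 CPM after saline, with 6 of 7 lower at an unadjusted p under 0.05 (4.57% of all genes), and that of 7 dopamine neuron markers was 1155 to 2818 and 1911 to 4936 CPM, with 3 of 6 tested lower. All 6 endothelial markers (median log2 fold change 0.24) and all 4 tested choroid plexus markers (0.54) were positive, 1 of each at that threshold. All 6 oligodendrocyte markers were negative (median -0.19), with 0 at that threshold. Of 5 markers of oligodendrocyte precursors 2 were lower at it, and of 6 astrocyte markers 1 was lower. Of 9 medium spiny neuron markers 1 was higher and 1 lower. The part of all these cells in the values of Dnmt1, Dnmt3a and Tet2 was not tested.

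In the VTA at 28 days, 0 of 9 genes and 0 of 16937 genes in all (0%) were called by edgeR. At an unadjusted p under 0.05 the counts were 2 of 9 and 11.5% of all genes, 1 of 9 higher (5.08% of all genes) and 1 lower (6.39%), and DESeq2 called 0 of the 9 and 73 genes in all (0.307%). The 5 saline libraries of Dnmt1 were at 9.48, 10.1, 10.6, 10.7 and 11.5 RPKM, and the 6 cocaine libraries at 11.3 (lowest), 12.1 (median) and 13.6 RPKM (highest). All 6 cocaine libraries exceeded the saline mean and 4 of 6 exceeded every saline library, with a log2 fold change of 0.22 ± 0.0723 (SE), which is 1.16-fold with an interval from 1.04 to 1.30 (edgeR adjusted p = 0.394, exact permutation p = 0.0152). Dnmt3a did not follow it, at -0.02 ± 0.0713 with an interval from -0.18 to 0.13.

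Gadd45g, a stress-induced member of its family, was the other of the 2. Its 5 saline libraries in the VTA at 28 days were at 10.3, 11.3, 13.8, 14.9 and 18.4 RPKM, and the 6 cocaine libraries at 9.33, 11.4 and 12.0 RPKM. The cocaine range lay inside and below the wide saline range, and the log2 fold change was -0.33 ± 0.145 (SE; edgeR adjusted p = 0.417, exact permutation p = 0.0758). Without the saline library at 18.4 RPKM it was -0.20. Gadd45b was at -0.34 ± 0.221 (adjusted p = 0.526), and Tet2 changed sign, from 0.06 to -0.07, without the saline library that held the lowest Dnmt3a, Dnmt3b and Tet2 of its group. Markers of some other cells were also lower after cocaine, with median log2 fold changes of -0.44 for 6 oligodendrocyte, -0.35 for 7 microglial and -0.46 for 6 endothelial markers. Of these 3, 1 and 2 were lower at an unadjusted p under 0.05 (6.39% of all genes), and 0 were called. Other lists were mixed. At that threshold 1 of 6 astrocyte markers (median -0.21) was higher and 1 lower, and of 6 tested cortical markers (median -0.73) 1 was higher and 3 lower. Of 5 markers of oligodendrocyte precursors (median -0.04) 2 were positive, as were 6 of 7 dopamine neuron markers (median 0.22). The part of these cells in the values of the members was not tested.

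In the PFC at 1 day, limma called 0 of 8 tested genes and 1 of 14427 genes in all (0.00693%), with an unadjusted p under 0.05 for 0 of 8 and 3.78% of all genes, and DESeq2 on recovered reads called 0 of the 9 and 5 in all (0.0214%). The 8 log2 fold changes lay between -0.04 (Tet2) and 0.16 (Gadd45a), and their median was -0.01, as was that of all genes tested. In the PFC at 28 days, edgeR called 0 of 9 genes and 0 of 16340 in all (0%), with 0 of 9 and 5.66% of all genes at an unadjusted p under 0.05, and DESeq2 called 0 of the 9 and 2 in all (0.00858%). Dnmt1, which was nominally higher after cocaine in the NAc and VTA at this time, was at -0.08 ± 0.0543 in the PFC, with saline libraries at 12.2, 12.8 and 14.3 RPKM and cocaine libraries at 11.7, 12.1 and 13.8 RPKM (adjusted p = 0.864). The difference between regions in this response was not tested. Without the saline PFC library that held striatal markers, 0 of 9 genes were again called, and the largest shift among the 9 was in Gadd45a, from -0.04 to -0.11.

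Whether the response to cocaine differed between 28 days and 1 day was tested as an interaction. In the NAc edgeR called 0 of 9 genes and 3 of 16612 in all (0.0181%), and DESeq2 called 0 of the 9 and 10 in all (0.041%). The smallest p belonged to Tet2, whose cocaine effect was 0.26 lower at 28 days than at 1 day (interaction -0.26 ± 0.132, SE; unadjusted p = 0.0567, adjusted p = 0.958, edgeR), with Gadd45a next in the other direction at 0.34 ± 0.185 (unadjusted p = 0.0795, adjusted p = 0.999, edgeR). With recovered reads for the 1-day tables, 0 of 9 genes were called in the VTA (0 of 17197 in all, 0%, with 15.6% of all genes at an unadjusted p under 0.05) and in the PFC (1 of 16565 in all, 0.00604%). For Dnmt1 in the VTA, nominally higher after cocaine at both times, the interaction was 0.09 ± 0.0918, and for Dnmt3a, nominally higher at 1 day alone, it was -0.18 ± 0.102 (unadjusted p = 0.0878, adjusted p = 0.404, edgeR). None of the 9 genes had an unadjusted p under 0.05 for the interaction by edgeR in any region, where 5.27% of all genes had it in the NAc and 4.85% in the PFC, while DESeq2 gave 0.0472 for Tet2 in the NAc (adjusted p = 0.9996).

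Differences between regions reached 1.35 on the log2 scale, against 0.37 between drugs. Saline libraries at 28 days, where all 3 tables hold raw counts, were compared in 1 edgeR fit, and the same contrasts were repeated in cocaine libraries at 28 days and in saline libraries at 1 day. The 28-day saline libraries are also the controls of the drug comparisons at that time, and contrasts share regions. Each region was deposited as its own table, so region and table cannot be told apart in these contrasts. Libraries of different regions were fitted as independent, and the labels do not tell whether they came from the same mice. The methods describe dissection of all 3 regions from the removed brains, so regions may share mice. The p-values of the region contrasts do not account for that. Pairing of same-numbered columns across regions at 1 day was not tested. VTA against NAc, 7 of 9 genes were called (2 higher and 5 lower in the VTA), where 62.5% of all genes were called (32.6% higher, 29.8% lower). PFC against NAc, 5 of 9 were called (2 higher, 3 lower), with 40.7% of all genes (20.7% higher, 20% lower), and PFC against VTA, 5 of 9 (3 higher, 2 lower), with 57.8% of all genes (28.1% higher, 29.8% lower). The members' shares were near those of all genes, so their own directions are described here. In the same order of contrasts, 68.5%, 53.4% and 64.9% of all genes were called in cocaine libraries at 28 days, and 66%, 40.9% and 64.6% in saline libraries at 1 day.

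**Figure D4:**
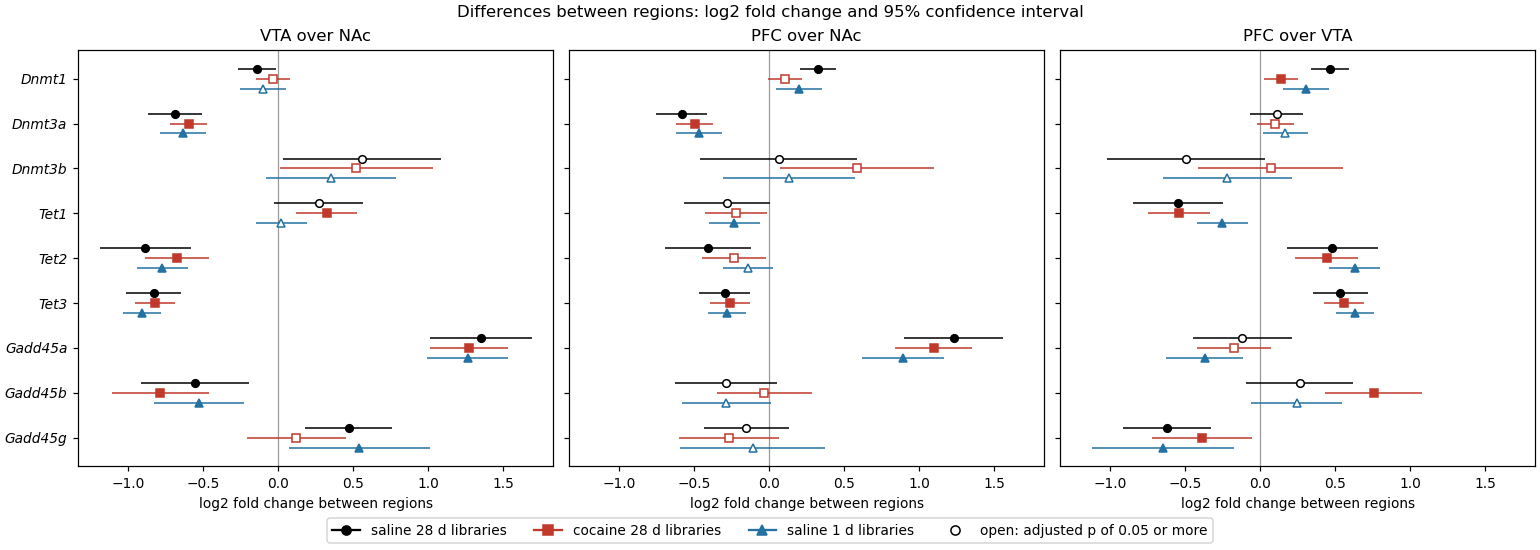
Log2 fold change between regions with its 95% confidence interval (horizontal axes) for each gene (vertical axes), in saline libraries at 28 days (black circles), cocaine libraries at 28 days (red squares) and saline libraries at 1 day (blue triangles). Open symbols have an adjusted p of 0.05 or more. Gadd45a lies to the right in the VTA and PFC against the NAc, and Dnmt3a to the left, in all 3 conditions.

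Dnmt3a was the NAc-weighted methyltransferase. Its saline libraries at 28 days were at 14.7 (lowest), 16.6 (median) and 17.3 RPKM (highest) in the NAc, at 8.92, 10.8, 11.2, 11.5 and 11.6 RPKM in the VTA, and at 9.24, 10.2 and 12.7 RPKM in the PFC. All NAc libraries were above all VTA and PFC libraries, and the share of all genes with regions so separated was not computed. The log2 difference was -0.69 ± 0.0858 (SE) for VTA over NAc (edgeR adjusted p = 1.65e-06) and -0.58 ± 0.0811 for PFC over NAc (adjusted p = 1.65e-05), and both were called in all 3 conditions, while PFC and VTA did not differ beyond their spread (0.11 ± 0.0850, adjusted p = 0.291). Dnmt1 had another order, with the PFC highest. PFC exceeded VTA by 0.46 ± 0.0601 (adjusted p = 3.15e-06), a call that held in all 3 conditions, and exceeded NAc by 0.32 ± 0.0570 (adjusted p = 0.000178), while in cocaine libraries the PFC over NAc difference was 0.10 ± 0.0550 (adjusted p = 0.122). The NAc over VTA step of Dnmt1 was small, at -0.14 ± 0.0599 for VTA over NAc with an adjusted p of 0.0489, which was lost in 8 of 17 fits that left out 1 library, and it was not called in the other 2 conditions. Dnmt3b was not called in any contrast or condition.

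Tet3 fell in a fixed order, NAc above PFC above VTA. Its saline libraries at 28 days were at 6.91, 7.67 and 8.17 RPKM in the NAc, at 5.24, 6.15 and 6.46 RPKM in the PFC, and at 3.65, 4.46, 4.60, 5.02 and 5.15 RPKM in the VTA. The 3 ranges did not overlap, and the share of all genes with regions so separated was not computed. All 3 contrasts were called in all 3 conditions, with VTA over NAc at -0.83 ± 0.0868 (edgeR adjusted p = 2.06e-07), PFC over NAc at -0.30 ± 0.0815 (adjusted p = 0.00666) and PFC over VTA at 0.53 ± 0.0863 (adjusted p = 3.98e-05). Tet2 was lowest in the VTA, at -0.89 ± 0.145 against the NAc (adjusted p = 3.83e-05), with PFC over VTA at 0.48 ± 0.144 (adjusted p = 0.00840), and both were called in all 3 conditions. Without the VTA library that held the lowest Tet2 these were -0.75 and 0.34. Tet1 ran against its 2 relatives, lower in the PFC than in the VTA by 0.55 (-0.55 ± 0.142, adjusted p = 0.00288), also in all 3 conditions.

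Gadd45a showed the largest regional difference of the 9 genes. In saline libraries at 28 days it was at 1.64, 1.98 and 2.20 RPKM in the NAc, at 4.21, 4.66, 5.39, 5.46 and 7.15 RPKM in the VTA, and at 3.24, 4.39 and 6.20 RPKM in the PFC. All VTA and PFC libraries were above all NAc libraries, and the share of all genes with regions so separated was not computed. The log2 difference was 1.35 ± 0.162 for VTA over NAc, which is 2.55-fold (edgeR adjusted p = 1.14e-06), and 1.23 ± 0.157 for PFC over NAc, which is 2.34-fold (adjusted p = 7.17e-06), and both held in all 3 conditions. PFC and VTA did not differ beyond their spread at 28 days (-0.12 ± 0.158, adjusted p = 0.534), while at 1 day the PFC was lower by 0.37 (-0.37 ± 0.124, adjusted p = 0.0127). Gadd45g was also higher in the VTA than in the NAc, by 0.47 ± 0.138 (adjusted p = 0.00690) and, at 1 day, by 0.54 ± 0.225 (adjusted p = 0.0407), but it was not called in cocaine libraries (0.12 ± 0.158, adjusted p = 0.520) or between PFC and NAc in any condition. Gadd45b was lower in the VTA than in the NAc (-0.55 ± 0.171, adjusted p = 0.00912), and Gadd45g lower in the PFC than in the VTA (-0.62 ± 0.139, adjusted p = 0.000889), each in all 3 conditions. Without the PFC library that held striatal markers, the PFC contrasts again called 5 and 5 of the 9 genes.

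Within groups, libraries scattered less for Dnmt1, Dnmt3a and Tet3 than for the GADD45 genes. Over the 71 libraries the SD of log2 CPM around the group mean was 0.110 for Dnmt1, smaller than in all but 15.7% of the 13817 genes measured in all 6 tables, where the median SD was 0.169. It was 0.118 for Tet3 (20.5% of genes smaller) and 0.124 for Dnmt3a (24.3%), and 0.181 for Tet1 and 0.190 for Tet2. The GADD45 genes stood at 0.232 for Gadd45a (71.3% of genes smaller), 0.308 for Gadd45b (85.7%) and 0.334 for Gadd45g (89.1%). Single libraries departed from their group by -0.83 to 0.87 for Gadd45b but only by -0.26 to 0.28 for Dnmt1. The GADD45 genes also had fewer reads than Dnmt1 in every group, and the part of counting error in this scatter was not tested. Dnmt3b passed the filter in too few tables to be placed on this scale, and its SD reached 0.121 around a mean of 0.228 RPKM (n = 6) in cocaine VTA at 1 day.

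**Figure D5:**
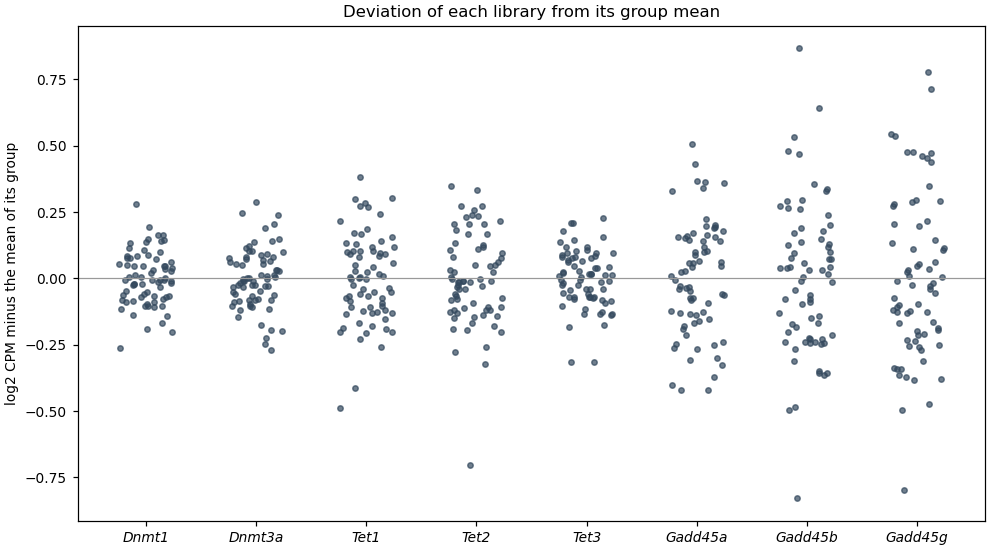
Deviation of each of the 71 libraries from the mean of its own group in log2 CPM (vertical axis) for the 8 genes that passed the filter in all 6 tables (horizontal axis). Dnmt1, Dnmt3a and Tet3 stay between -0.32 and 0.29, and Gadd45b and Gadd45g reach 0.87 and 0.78.

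The genes whose deviations most resembled each member were named from the same 71 libraries, as a description that shares library, depth and RNA quality between points. Tet1 resembled Phc3 (Pearson r = 0.864), Rif1 and Qser1, and Tet2 resembled Dicer1 (r = 0.840), Med12 and Chd6. Dicer1 cuts microRNA precursors and Med12 is a Mediator subunit. Dnmt3a resembled Pkd1 (r = 0.794), Tet3 resembled Zfp592 (r = 0.767) and Dnmt1 resembled Adar (r = 0.753), which encodes an RNA-editing enzyme. Gadd45a resembled Atf4 (r = 0.640), the transcription factor of the integrated stress response, Gadd45b resembled Sod3 (r = 0.711), an extracellular superoxide dismutase, and Gadd45g resembled Ruvbl2 (r = 0.744). Among the members themselves the closest pair was Tet1 and Tet2 (r = 0.672), followed by Dnmt3a and Tet2 (r = 0.647). The members were also set against 13 immediate-early genes, which neurons switch on within minutes of activity. The median r of Gadd45b was 0.484, with 12 of 13 positive and the highest for Dusp1 (0.609). Medians were also positive for Tet3 (0.338, 12 of 13 positive), Gadd45a (0.268, 13 of 13) and Gadd45g (0.248, 12 of 13). They were smaller for Dnmt3a (0.033, 8 of 13) and Dnmt1 (0.017, 7 of 13), and negative for Tet2 (-0.10, 2 of 13) and Tet1 (-0.15, 1 of 13). The same values over all genes were not computed.

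Genes around this pathway were read in the same way, and 0 genes of 6 lists were called in any of the 6 comparisons, where the shares of all genes called are those given above. The lists were 10 partners of the methyltransferases, 10 proteins that bind methylated DNA, 18 genes of base excision and gap repair, 11 TET partners and suppliers of their cosubstrate, 14 genes of the S-adenosylmethionine cycle, and the stress kinase and p53 genes around GADD45 (12 table entries for 11 symbols). The most with an unadjusted p under 0.05 in 1 comparison was 4 of 10 tested in the GADD45 list, all higher after cocaine in the VTA at 1 day, where 11.2% of all genes were higher. Mapk14, the p38 kinase downstream of GADD45 signalling, was at 15.2 to 17.0 RPKM after saline and 17.2 to 20.7 RPKM after cocaine there, with a log2 fold change of 0.22 ± 0.0549 (limma adjusted p = 0.112). Groups of libraries did not overlap for Mapk14, as for 1.67% of all genes in that comparison.

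Mat2a, Ogt, Uhrf2, Mbd4, Mbd6, Cxxc5 and Ddit4 each had the smallest p of their list in more than 1 comparison, and they are named for that reason. Mbd6 was at -0.20 in the NAc at 28 days and 0.35 in the VTA at 1 day. Ddit4 was at 0.38 in the PFC at 1 day and -0.20 at 28 days. Cxxc5 was at -0.10 in the PFC at 1 day and -0.19 in the VTA at 28 days. Mbd4 was at 0.10 in the NAc and 0.16 in the PFC at 1 day. The repeats of all these genes are a description of the values that picked them. The share of all genes with such repeats was not computed, and the labels do not tell whether regions shared mice. Mat2a, which makes the methyl donor S-adenosylmethionine, went from 290 CPM ± 27.3 (SD, n = 6) to 338 ± 23.2 (n = 6) in the NAc at 1 day (log2 fold change 0.22, edgeR adjusted p = 0.990) and from 71.2 RPKM ± 2.73 to 82.4 ± 7.91 in the PFC at 1 day (0.21, limma adjusted p = 0.913). Ogt, the O-GlcNAc transferase that binds TET proteins, differed by 0.20 in the NAc (edgeR adjusted p = 0.9999) and 0.21 in the VTA at 1 day (limma adjusted p = 0.223). Uhrf2, a relative of the factor that brings Dnmt1 to replicated DNA, differed by 0.14 in the NAc at 1 day, 0.14 in the VTA at 1 day and 0.24 in the VTA at 28 days, where it was at 36.4 CPM ± 4.59 (n = 5) after saline and 43.5 ± 2.58 (n = 6) after cocaine (edgeR adjusted p = 0.394). None of these passed adjustment.

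As a reference for the size of drug effects in the same libraries, 18 immediate-early and 12 glucocorticoid-induced genes were read. Of the immediate-early genes 0 were called, and 9 of 18 in the NAc, 7 of 13 tested in the VTA and 5 of 18 in the PFC at 1 day were higher at an unadjusted p under 0.05, where 2.76%, 11.2% and 1.67% of all genes were higher. Their median log2 fold changes were 0.38, 0.40 and 0.22. The glucocorticoid-induced Plin4, a lipid droplet coat protein, rose in all 3 regions at 1 day, by 2.57 in the NAc (edgeR adjusted p = 0.0199), 2.14 in the VTA (limma adjusted p = 0.0266) and 2.17 in the PFC (limma adjusted p = 0.00233) on the log2 scale, and Hif3a rose by 1.08 in the NAc (edgeR adjusted p = 0.0122). Plin4 and Hif3a are named because they were called. Over all 12 glucocorticoid-induced genes the median log2 fold change at 1 day was 0.23 in the NAc, 0.56 in the VTA and 0.36 in the PFC. In the same order 6, 9 and 8 of 12 were higher at an unadjusted p under 0.05. The largest difference of a methylation or demethylation gene at 1 day was 0.23 in size, and the medians of the tested members were 0.03, 0.14 and -0.01. At 28 days 0 genes of these lists were called, the median log2 fold change of the glucocorticoid-induced genes was -0.10 in the NAc, -0.31 in the VTA and -0.15 in the PFC, and that of the 9 genes was -0.01, -0.02 and 0.03.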

How the data were processed

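The authors aligned reads with STAR 2.4.1d to mm9 with the Ensembl annotation. For the NAc at both times and the VTA and PFC at 28 days the authors deposited raw counts of reads per gene, and for the VTA and PFC at 1 day RPKM values, divided by gene length and library reads. The counting tool and strand are not given in the sources used here. The tables also hold the authors' log2 fold changes and p-values of cocaine against saline, which were not used, and 30 columns of values from libraries outside the groups analysed here, which were not used in any step. Columns were assigned by name. In the 28-day tables a name gives the group but not which labelled sample it is.

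The test for counts was the quasi-likelihood test of edgeR 4.0.16, run in R 4.3.3 (TMM scaling, filterByExpr with a minimum count of 10 and total of 15), fitted within each table over all genes. For RPKM values it was limma 3.58.1 (eBayes with trend) on log2(RPKM + 0.1), restricted to genes whose mean RPKM was 0.5 or more. A fold change on that scale understates the change of low genes. p-values were adjusted over all genes tested (Benjamini-Hochberg), and genes under 0.05 were called. Members were also compared by two-sided exact permutation tests over the 924 divisions of the libraries (462 in the VTA at 28 days), whose smallest possible p is 0.00216. Levels in RPKM for count tables were TMM-scaled CPM divided by the gene length implied by the authors' RPKM. Reads were recovered from the steps of the RPKM values, and all 23806 genes with reads in the VTA and 23353 in the PFC gave whole reads within 0.001. They served for CPM, for the 1-day region contrasts and for the interaction.

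The methods of the study compare drug with saline within region and time, without stating covariates, and that design was kept. The members, gene lists and markers were chosen with earlier results of these data known. All 9 members are named. For 1 gene of the other lists the result is not reported here. Of the other lists the genes named come from those called and the gene with the smallest p per list and comparison, and for likeness the 3 genes with the highest Pearson r over 71 libraries among 13817 genes. Alternatives were DESeq2 1.42.0, its size factors, a pseudocount of 1, an unfiltered table, an adjusted p under 0.25, edgeR on recovered reads, blocking on replicate number, and the omission of each library in turn. DESeq2 on recovered reads, the interactions in the VTA and PFC, and region contrasts in cocaine libraries and at 1 day were added after seeing the data. The code was tested on simulated data. No 2 libraries of a group agreed within sampling noise. Promoter windows came from RefSeq (GRCm38.p6), whose coordinates differ from the mm9 gene coordinates and were not mixed with them. Figures were drawn with matplotlib 3.10.9.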

Additional observations from a re-analysis of the deposited data

Results flagged for a closer look

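In 9 of 108 combinations of gene and group 1 library lay apart from the rest of its group by Dixon's test at 95%, where chance flags about 1 in 20 groups. In saline NAc at 1 day Tet2 was highest in replicate 5, at 9.21 RPKM against 6.69 to 7.30 in the other 5. In cocaine NAc at 28 days a single library held the highest Dnmt3a (17.7 RPKM against 14.3 to 15.4), Tet1 (1.47 against 1.01 to 1.14) and Tet2 (6.44 against 4.68 to 4.98). In cocaine VTA at 1 day Tet3 was highest in replicate 6, at 4.43 RPKM against 3.36 to 3.72. In saline VTA at 28 days a single library held the lowest Dnmt3a (8.92 RPKM against 10.8 to 11.6), Dnmt3b (0.122 against 0.215 to 0.266) and Tet2 (1.91 against 3.29 to 3.76). In cocaine VTA at 28 days Tet3 was lowest in 1 library, at 3.62 RPKM against 4.53 to 4.81. No member was called for cocaine against saline with or without any of these libraries. The causes of these values were not tested.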

How the results depend on the processing

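The count of 0 members called for cocaine against saline stayed at 0 under all settings run except an adjusted p under 0.25. There 2 of 8 genes in the VTA at 1 day passed (Dnmt1 and Dnmt3a), as did 1309 genes in all (8.7%). The absence of a call does not show the absence of a response. At 28 days edgeR called 0 genes in all in each region. The 95% interval of Dnmt3b, the gene with the fewest reads, reached beyond a 1.5-fold change in all 4 comparisons that tested it, and results close to 0 changed sign freely. Gadd45g in the NAc at 1 day went from -0.00 to 0.000515 with DESeq2 and 0.041 with the replicate block, and in the VTA at 1 day from 0.01 to -0.00282 with edgeR and -0.00308 with DESeq2 on recovered reads. The NAc interaction of Tet3 became 0.00192 with no filter on low counts. In region contrasts, cocaine libraries in place of saline gave 3 of 9 calls for PFC against NAc in place of 5, without Dnmt1 and Tet2, and turned Dnmt3b for PFC over VTA from -0.50 to 0.068. Dnmt1 for VTA over NAc lost its call with DESeq2 (adjusted p = 0.0614), its size factors with edgeR (0.0673) and no filter (0.0703). The causes were not tested.

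With each library left out in turn, 0 members were called for cocaine in any comparison, and between 6 and 8, 4 and 6, and 5 and 6 of 9 were called for VTA over NAc, PFC over NAc and PFC over VTA. Results that changed sign or call gave these ranges. In the NAc at 1 day they were -0.030 to 0.074 for Dnmt1, -0.020 to 0.078 for Dnmt3a, -0.17 to 0.21 for Dnmt3b, -0.018 to 0.036 for Tet3 and -0.13 to 0.10 for Gadd45g. In the NAc at 28 days they were -0.10 to 0.022 for Tet1, -0.031 to 0.015 for Tet3 and -0.16 to 0.14 for Gadd45g. In the VTA at 1 day the range was -0.089 to 0.10 for Gadd45g. In the VTA at 28 days they were -0.074 to 0.013 for Dnmt3a, -0.087 to 0.091 for Tet1, -0.072 to 0.13 for Tet2, -0.093 to 0.028 for Tet3 and -0.085 to 0.12 for Gadd45a. In the PFC at 1 day they were -0.068 to 0.0015 for Dnmt1, -0.049 to 0.011 for Dnmt3a, -0.036 to 0.047 for Tet3, -0.053 to 0.062 for Gadd45b and -0.13 to 0.13 for Gadd45g. In the PFC at 28 days they were -0.031 to 0.064 for Dnmt3a, -0.025 to 0.11 for Tet1, -0.00065 to 0.093 for Tet2, -0.018 to 0.048 for Tet3 and -0.12 to 0.080 for Gadd45a. The NAc interaction ranged from -0.029 to 0.026 for Tet3 and -0.14 to 0.20 for Gadd45g. For VTA over NAc the ranges were -0.19 to -0.11 for Dnmt1, whose call was lost in 8 of 17, 0.40 to 0.71 for Dnmt3b and 0.19 to 0.37 for Tet1. For PFC over NAc they were -0.086 to 0.14 for Dnmt3b, -0.36 to -0.23 for Tet1 and -0.47 to -0.36 for Tet2, whose call was lost without 1 NAc library, and for PFC over VTA -0.65 to -0.42 for Dnmt3b and 0.16 to 0.40 for Gadd45b.

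Same-numbered cocaine and saline columns at 1 day deviated together (r over 0.1) in 3 of 6 pairs in the NAc, 4 of 6 in the VTA and 0 of 6 in the PFC, and cocaine columns correlated best with their own number in 2 of 6, 2 of 6 and 0 of 6. Since not every pair deviated together, the numbers were not taken to pair the libraries. With the replicate block 0 members were called in each, and the genes called in all were 2 in the NAc, 60 in the VTA in place of 10, and 1 in the PFC. At 28 days no paired analysis was possible because the column numbers are not those of the labels, for the drug comparisons and for the region contrasts.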
